A study of Zea mays with 27 samples.

Results

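Enzymes of C4 and Calvin cycle carbon fixation were represented by 5 cDNA probes of 3 genes, out of 18303 probes with values and 1607 probes that the platform's table assigns to a single gene (532 genes in all). They were LOC542233 (me3), the NADP-malic enzyme, with probes 2772 and 6768, LOC542212 (rbcs1), the small subunit of Rubisco, with probes 9535 and 16448, and LOC542374 (mdh6), NADP-malate dehydrogenase, with probe 6174. The probes of these genes were taken by gene identifier, without a filter on their values, but the genes were chosen with earlier results of these data known. Each of the 27 arrays compared RNA from a pair of genotypes among the inbred lines B73 and Mo17 and their F1, in which Mo17 was the seed parent, in shoots of seedlings harvested at 14 days, with 6 seedlings pooled per genotype and replication. The loops of 3 arrays covered 9 replications, so each RNA pool was hybridised on 2 arrays. The labels used here name 1 channel of array S1 (F1 in Cy3) and no other, so no array could be placed in a genotype comparison and the arrays are not replicates of any group.

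In maize, carbon dioxide is first fixed in mesophyll cells into oxaloacetate, which chloroplast NADP-malate dehydrogenase reduces to malate. Malate passes to the bundle sheath, where NADP-malic enzyme releases carbon dioxide for Rubisco, whose catalytic large subunit is made in the chloroplast and whose small subunit is encoded in the nucleus. The transcripts of me3 and rbcs1 are thus known from the bundle sheath and that of mdh6 from the mesophyll. Whole shoots were used, so fewer cells of a type and less RNA per cell cannot be told apart, and a ratio between channels gives no level against which the tissue could be checked.

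Values below are log2 ratios of the 2 channels of an array, relative to that array's median. The log base was inferred from the values, and a constant multiple of the ratios is not excluded. Here 2-fold therefore means a value of 1 on the inferred scale. The numerator channel is not stated, so "above" and "below" the median name sides and not genotypes. Whether 2 probes lie on the same side does not depend on the numerator, and that count is the main measure of likeness here. A value equal to the array median counts as on neither side. No member value lay there, but other probes can, which can lower the counts below for gene-named probes and for genes with 2 probes. Pearson and Spearman correlations are given as descriptions, without p-values, since arrays share RNA pools and the labels do not tell which arrays do. The uncentred correlation, also given, is computed without subtracting each probe's mean over arrays and, like the side count, does not depend on the numerator. The arrays fell into S1 to S15, where 2.47% to 13.9% of probes held an array's single most frequent value, and S16 to S27, where 0.0601% to 0.475% did. None of the 5 probes held such a value on any array. The interquartile range of all ratios on an array ran from 0.40 (S9) to 1.57 (S19).

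The ratios of the carbon fixation probes were mostly within 2-fold of the array median. Of 135 values, 22 were at least 2-fold away, and they lay on 12 arrays. On S1 to S15 this held for 5 values, or 6.67% of the members' values, and on S16 to S27 for 17, or 28.3%. Over all gene-named probes the shares were 11.4% and 13.4%. The difference between the sets of arrays was not tested. Of all probes on an array, 0.158% to 38.0% lay at least as far out as the member value there, for these 22 values.

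For me3 probe 2772 the lowest value was -1.53 (S27), the median -0.09 and the highest 0.89 (S4). It lay above the median on 11 arrays and below on 16, and its 4 values beyond 2-fold were all below, on S19, S21, S23 and S27. Of all probes on these arrays, 33.8%, 18.5%, 20.6% and 11.9% lay at least as far out. On S19, S21 and S23 the block of 400 spots that holds the probe, inferred as a printing block, had a median of -0.64, -0.65 and -0.60. After each block was centred on its own median, S27 was the 1 array left beyond 2-fold for this probe among those 4, at -1.11. Its spread, here the 90th minus the 10th percentile of a probe's 27 values, was 1.65.

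For me3 probe 6768 the lowest value was -6.63 (S25), the median -0.01 and the highest 1.10 (S23), with 13 arrays above and 14 below. Beyond 2-fold it was above on S19 and S23 and below on S22, S25 and S26. A pair of arrays stood far from the rest, S25 and S22 at -6.63 and -4.30. If the inferred scale holds, these are ratios of 99.4 and 19.7 between the channels. These arrays had narrow ratios, with interquartile ranges of 0.54 and 0.66, and 0.158% and 0.907% of all probes lay as far out. Their block medians were -0.14 and -0.01, so block centring left the values at -6.49 and -4.29. On the same arrays me3 probe 2772 read -0.11 and 0.59. The spread of probe 6768 was 1.83, and 1.29 without that pair of arrays.

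For rbcs1 probe 9535 the lowest value was -0.53 (S12), the median 0.19 and the highest 3.56 (S27). It lay above the median on 17 arrays, and its 4 values beyond 2-fold were all above, on S1, S19, S26 and S27. S27 was far from the others, the next being 1.56 on S19, and 5.37% of all probes were as far out on S27. Its spread was 1.48, and 1.30 without S27 and S19.

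For rbcs1 probe 16448 the lowest value was -2.71 (S13), the median -0.26 and the highest 0.84 (S14), with 9 arrays above and 18 below. Its 5 values beyond 2-fold were all below, on S6, S13, S19, S21 and S23, with -2.70 on S21 and -2.07 on S19. On 4 of these arrays, S13, S19, S21 and S23, probe 9535 lay on the other side, at 0.15, 1.56, 0.59 and 0.90. After block centring it was at -0.28 and -0.0039 on S13 and S21, no longer opposite, and at 0.67 and 0.97 on S19 and S23. For probe 16448, block centring moved S21 to -1.62, since that block's median was -1.08, and left S13 at -2.71 and S19 at -2.13. Its spread was 1.94, the widest of the 5, and 1.40 without S13 and S21.

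For mdh6 probe 6174 the lowest value was -1.39 (S23), the median -0.01 and the highest 1.73 (S15), with 12 arrays above and 15 below. Values beyond 2-fold were those of S13 (-1.32), S15, S23 and S24 (-1.01). The median size of its ratio was 0.26, against 0.42 to 0.50 for the other 4 probes. Its spread of 1.28 was the narrowest of the 5.

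**Figure D1:**
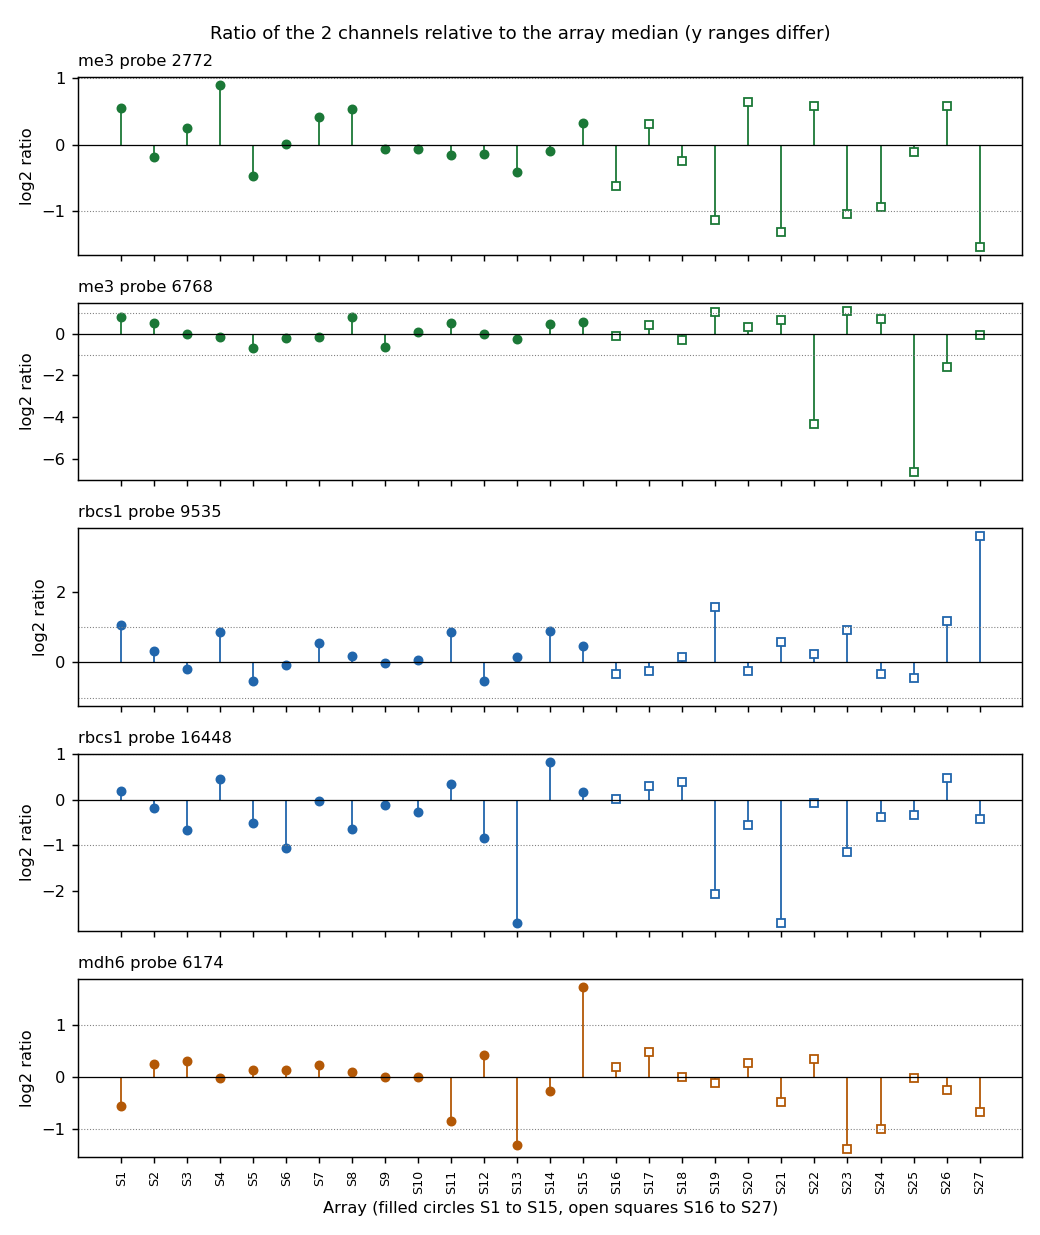
Log2 ratio of each member probe (panels, y axis relative to the array median, ranges differ) on arrays S1 to S27 (x axis), with dotted lines at 2-fold. The far values are those of me3 probe 6768 on S22 and S25 (-4.30 and -6.63), of rbcs1 probe 9535 on S27 (3.56) and of rbcs1 probe 16448 on S13 and S21 (-2.71 and -2.70).

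The spread reached 2-fold for all 5 members, as it did for 65.0% of gene-named probes and 79.2% of all probes. The members' median spread was 1.65, against 1.17 over gene-named probes and 1.54 over all probes. Each member lay between the 58.6th and 80.3rd percentile of gene-named probes, so none was among the widest. Spreads on S1 to S15 were 0.87 and 1.16 for me3, 1.26 and 1.38 for rbcs1 and 1.11 for mdh6. On S16 to S27 they were 1.87 and 5.02 for me3, 1.86 and 2.36 for rbcs1 and 1.30 for mdh6.

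The probes of a gene did not follow each other closely. The me3 probes shared a side of the median on 13 of 27 arrays (48.1%, exact binomial 95% interval 28.7% to 68.1%, counting error only). Their Pearson r was -0.21, Spearman rho -0.22 and uncentred correlation -0.17, and r was -0.19 without the 2 arrays farthest from the median of probe 2772. Single arrays moved it, to -0.33 without S25 and -0.12 without S22, where probe 6768 was lowest. The rbcs1 probes lay on the same side on 15 arrays (55.6%, 35.3% to 74.5%), with r of 0.0059, rho of 0.21 and an uncentred correlation of -0.18, and r was 0.21 without S27 and S19. The median distance between the probes on an array was 0.55 for me3 and 0.49 for rbcs1, beside median sizes of 0.42 to 0.50 for the ratios of these 4 probes.

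Low agreement was common on these arrays. Of the 112 genes with exactly 2 probes, 9.82% had both probes on the same side on at least 19 arrays, and neither me3 nor rbcs1 reached that number. The median of these genes was 13 arrays, with r of 0.04 and a distance between probes of 0.60.

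**Figure D2:**
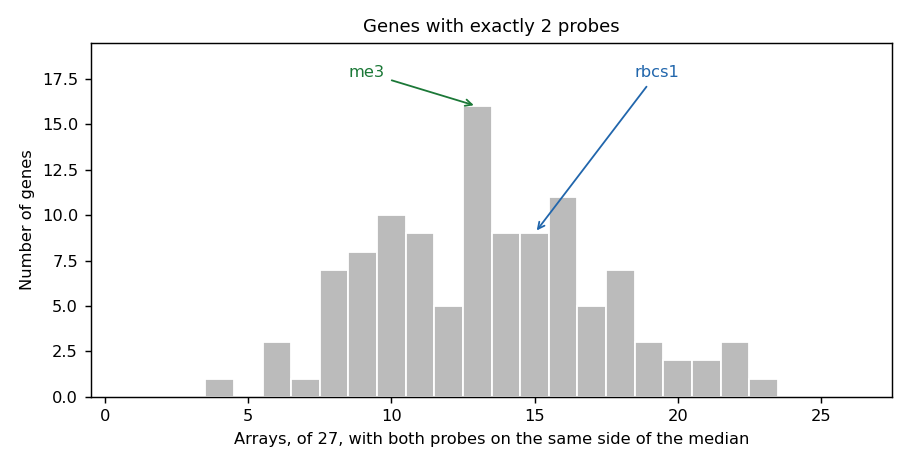
Number of arrays, of 27, on which both probes of a gene shared a side of the median (x axis), for the 112 genes with exactly 2 probes (y axis, number of genes). Arrows mark me3 at 13 and rbcs1 at 15 arrays, near the median of 13.

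The rbcs1 probes agreed better on S1 to S15 than on the other arrays. Within S1 to S15 they lay on the same side on 10 of 15 arrays with r of 0.57 and rho of 0.82, and the uncentred correlation was 0.27. Within S16 to S27 this held for 5 of 12 arrays, with r of -0.23, rho of -0.31 and an uncentred correlation of -0.40. For me3 the numbers were 7 of 15 arrays with r of 0.36 and 6 of 12 with r of -0.45. The 112 genes had a median r of 0.14 on S1 to S15 and 0.0037 on S16 to S27. The difference between the sets was not tested for either gene.

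**Figure D3:**
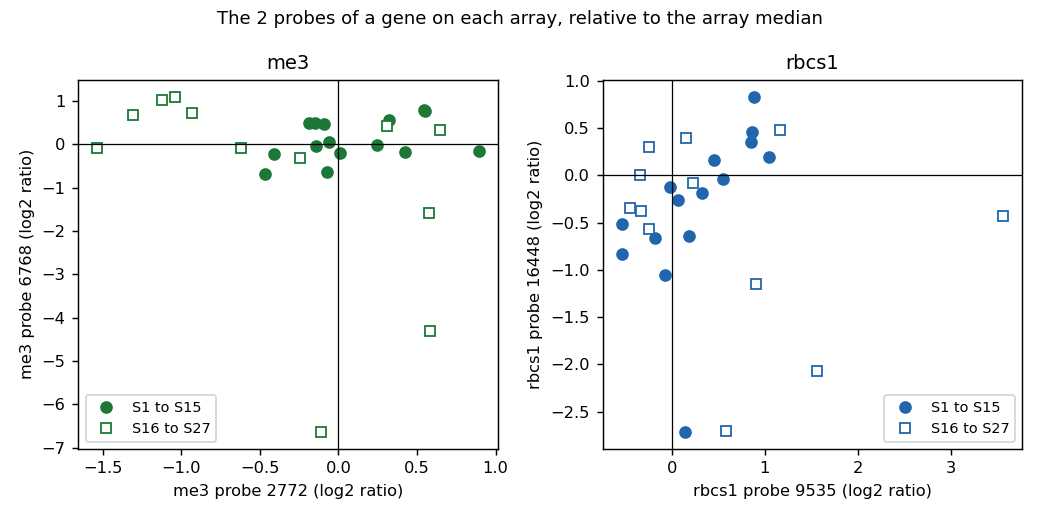
Both probes of me3 (left) and of rbcs1 (right) on each array, as log2 ratios relative to the array median, with filled circles for S1 to S15 and open squares for S16 to S27. Points at lower left and upper right have both probes on the same side, which are 13 arrays for me3 and 15 for rbcs1.

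With the probes of a gene averaged, the bundle sheath genes me3 and rbcs1 lay on the same side on 18 of 27 arrays (66.7%, 46.0% to 83.5%), with r of 0.10 and rho of 0.21, and r was 0.01 without S25 and 0.21 without S27. The mesophyll gene mdh6 shared its side with me3 on 16 arrays (59.3%, 38.8% to 77.6%) and with rbcs1 on 13 (48.1%, 28.7% to 68.1%). The respective r were 0.06 and 0.03, and rho 0.18 and -0.14. These correlations changed sign easily: after block centring r was -0.06 and 0.36 and rho -0.02 and 0.22, r of me3 and mdh6 was -0.04 without S15, and r of rbcs1 and mdh6 was -0.16 without S13. The 3 intervals overlap, but the shares come from the same arrays and genes, so overlap does not test their difference. Whether the pair from the same cell type differed from the pairs across cell types was not tested. Of the 18 arrays with me3 and rbcs1 on the same side, mdh6 was on the other side on 8 and on that side on 10.

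On S1 to S15 alone, me3 and rbcs1 shared a side on 12 of 15 arrays (80.0%, 51.9% to 95.7%), with r of 0.60 and rho of 0.68, and mdh6 lay opposite on 7 of the 12. On those arrays mdh6 shared its side with me3 on 7 of 15 and with rbcs1 on 6 of 15. After block centring me3 and rbcs1 shared a side on 13 of the 15, with mdh6 opposite on 6 and on the same side on 7. The side of mdh6 was then that of me3 on 9 of 15 and that of rbcs1 on 7 of 15. No share over other pairs of genes is given beside these counts. On S16 to S27 me3 and rbcs1 shared a side on 6 of 12 arrays, with r of -0.04, and mdh6 lay opposite on 1 of the 6. Averages on S22 and S25 are set by me3 probe 6768, since me3 reached -3.37 on S25.

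The difference between the mean of me3 and rbcs1 and the value of mdh6 had a median size of 0.47 over arrays, from 0.01 (S18) to 1.87 (S25). It was at least 2-fold on 7 of 27 arrays, above 0 on 11 and below on 16. After block centring it was at least 2-fold on 3 arrays, above 0 on 15 and below on 12, so both the number of large differences and the side of the majority depended on that step. The distance between the means of me3 and rbcs1 was 0.43 by median, that between me3 and mdh6 0.39 and that between rbcs1 and mdh6 0.65. The order of these distances was not fixed: after block centring they were 0.38, 0.43 and 0.42, with me3 and rbcs1 closest, and on S1 to S15 they were 0.29, 0.45 and 0.69.

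Single probes gave other pairings. The pair that shared a side most often was me3 probe 2772 and mdh6, from different cell types, on the same side on 20 of 27 arrays (74.1%, 53.7% to 88.9%), with r of 0.49, rho of 0.47 and an uncentred correlation of 0.50. On S1 to S15 and S16 to S27 this held for 10 of 15 and 10 of 12 arrays. After block centring the pair shared 18 arrays, with r of 0.34, below the threshold of 19 used here. Among all pairs of gene-named probes of different genes, 5.96% shared a side on at least 19 arrays, and 1 of the 8 pairs of member probes from different genes did. The other me3 probe shared its side with mdh6 on 12 arrays. At the other end, rbcs1 probe 9535 and mdh6 shared a side on 8 arrays and were opposite on 19, with r of -0.32 and rho of -0.49. Of all pairs of gene-named probes of different genes, 8.95% shared a side on at most 8. Such pairs need not be opposite on 19, since values at the median count on neither side. After block centring rbcs1 probe 9535 and mdh6 shared 12 arrays with r of -0.05. The me3 probe 2772 and rbcs1 probe 16448 shared a side on 17 arrays, with r of 0.53 and rho of 0.44, and on 20 after block centring, when it was the pair that shared most.

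The rbcs1 probes often shared a side with subunits of photosystem I, the light-driven complex that passes electrons to ferredoxin and is encoded in part by nuclear psa genes. Probe 16448 shared its side with LOC542605 (psan1) on 21 of 27 arrays, with r of 0.73 and rho of 0.76. With LOC541791 (psad1), a stromal subunit, it shared 20 arrays, with r of 0.76 and rho of 0.74, and with LOC541685 (psah1) 18 arrays, with r of 0.54 and rho of 0.65. Without S13 and S21, the arrays farthest out for that probe, r was 0.63, 0.68 and 0.42. After block centring the side was shared on 21, 20 and 19 arrays. Correlations with psan1 and psad1 were 0.81 and 0.73 on S1 to S15 and 0.65 and 0.82 on S16 to S27, while for psah1 they were 0.80 and 0.23.

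Probe 9535 shared its side with psah1 on 20 arrays, with r of 0.38 and rho of 0.54, and r was 0.64 without S27 and S19. With psan1 it shared 19 arrays, with r of 0.32 and rho of 0.45, and with psad1 16 arrays. The mdh6 probe shared 9, 10 and 13 arrays with psah1, psan1 and psad1. The me3 probes shared 16, 15 and 16 arrays for probe 2772 and 14, 11 and 10 for probe 6768.

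Over all 8 photosystem probes, which include antenna proteins, pairs with a member reached at least 19 arrays in 7 of 40 cases, against the 5.96% of all pairs of different genes. These were the 4 rbcs1 pairs just given with at least 19 arrays and 3 pairs with LOC542126 (psbs1), the PsbS protein of photoprotection. The threshold was chosen after seeing the data and the list with earlier results known. The 40 pairs also reuse the same probes, so the difference from 5.96% was not tested. Probe 6734 of psbs1 shared a side with mdh6 on 20 arrays and with me3 probe 2772 on 19, with r of 0.46 and 0.61. On S1 to S15 these r were 0.63 and 0.28, and on S16 to S27 0.25 and 0.67. The gene's other probe, 18412, shared 12 and 13 arrays with them, and 19 with me3 probe 6768, where r was -0.07. With the psbs1 and antenna probes, rbcs1 probe 16448 shared 11 to 16 arrays, with r from -0.53 to 0.62. Probe 9535 shared 11 to 17 arrays with them. Pairs of gene-named probes of different genes had a median of 13.

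**Figure D4:**
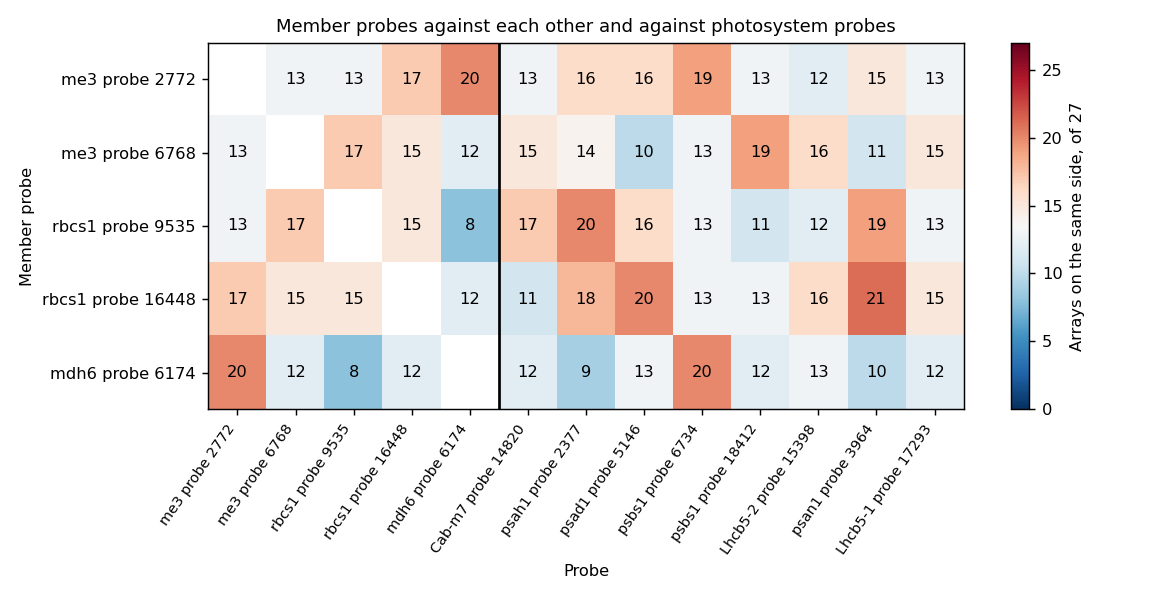
Number of arrays, of 27, on which the member probe of a row and the probe of a column shared a side of the median. Left of the line are the 5 member probes, where me3 probe 2772 with mdh6 has 20 and rbcs1 probe 9535 with mdh6 has 8, and right of it 8 photosystem probes, where rbcs1 probe 16448 has 21 with psan1 and 20 with psad1.

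Other genes of carbon fixation and linked steps were found by symbol for 13 probes of 6 genes, with spreads from 0.64 to 2.21 and a median of 1.02. Of the 13, 7 reached 2-fold, beside 65.0% of all gene-named probes. The 13 include the probe of LOC541677 and 7 of LOC542598, a cytosolic malate dehydrogenase, both taken up below. LOC541712 (rca1), Rubisco activase, which keeps Rubisco active and is known from the bundle sheath, had a spread of 0.89 and shared its side with the 5 members on 14 to 16 arrays. LOC542290 (gpb1) had the widest spread, 2.21, LOC542331 (me2) had 0.83, and the probes of LOC542261 (ald1), an aldolase, had 1.02 and 0.98. The probe of LOC541677 matched through the name PDK1, but its other symbol, pdlk1, is not one of pyruvate phosphate dikinase, and it is not read as that C4 enzyme here. It was the one match to the mesophyll markers besides mdh6.

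LOC542598 (mdh4, mdh5), a cytosolic malate dehydrogenase by its synonym CYTMDH, had 7 probes. Its probe 2560 shared a side with mdh6 on 24 of 27 arrays, with r of 0.58 and rho of 0.77, a number that 0.0902% of pairs of different genes reached. It also shared 21 arrays with me3 probe 2772, which lies in the same block of spots, with r of 0.75. That r, however, was 0.19 on S1 to S15, 0.87 on S16 to S27 and 0.49 after block centring. With mdh6 it was 0.74, 0.50 and 0.59, and the side was shared on 21 arrays after block centring. The other 6 probes shared 9 to 18 arrays with mdh6. In all, 4 of 65 pairs of a member with the 13 probes reached 19 arrays, near the 5.96% of all pairs. LOC542479 (pep7), a phosphoenolpyruvate carboxylase by its synonym pepcZm2A, was added after its name was seen. Pairs of its 7 probes with a member shared 8 to 20 arrays, with a median of 14, and 3 of 35 reached 19, near the 5.96% of all pairs. Probe 2126 shared 19 arrays each with me3 probe 2772 and rbcs1 probe 16448, with r of 0.66 for both, and probe 7279 shared 20 with me3 probe 2772, with r of 0.51, and 17 after block centring.

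Among 1491 or 1492 other gene-named probes, those with the highest Pearson r to the mean of a member gene over 27 arrays differed in how they held up. For rbcs1 they were a probe of LOC542725 (grp1) with r of 0.76 and rho of 0.69, the psan1 probe with 0.75 and 0.81, and a probe of LOC542458 with 0.74 and 0.79. They shared its side on 21, 22 and 21 arrays, and r was 0.70, 0.79 and 0.78 without the 2 farthest arrays. With rbcs1 probe 9535 alone, r was 0.60 for grp1, 0.32 for psan1 and 0.74 for LOC542458. With rbcs1 probe 16448 alone, r was 0.48, 0.73 and 0.32. The psan1 probe was thus closer to probe 16448 and that of LOC542458 to probe 9535. The genes grp1 and LOC542458 have 26 and 15 probes, and the likeness of their other probes to rbcs1 is not given here. For mdh6 the highest included a probe of LOC542601 (tif5A), a translation factor of the eIF5A family with 12 probes. Its r was 0.88 and its rho 0.83. The others were a pair of probes named MNB1b, with r of 0.89 and 0.87 and rho of 0.74 and 0.60. MNB1b is given to 221 probes, so the identity of these is unsure. The tif5A probe lay in the block of the mdh6 probe, and r was 0.82 after block centring and 0.84 without the 2 farthest arrays.

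For me3 the highest were a probe of LOC542348 (tif-4A3), an eIF4A-type factor, with r of 0.68, one of LOC542307 (cyc1), a cyclin, with 0.52, and one of LOC541806 (cesa8), a cellulose synthase, with 0.52. Without S25 and S22, where me3 probe 6768 was lowest, r fell to -0.16, -0.19 and 0.24, so these rest on that pair of arrays. Before that, rho was -0.08, -0.05 and 0.24.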

How the data were processed

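The deposited table held 19200 spots on 27 2-colour cDNA arrays, Cy3 in channel 1 and Cy5 in channel 2 per the labels, and 18303 had values on all arrays. The authors' deposited values were taken for natural log ratios between channels, because repeated values lay 2 times the natural log of whole numbers apart in 106 pairs, against 4.20 at shifted distances (for base 2, 3 against 4.40, and for base 10, 20 against 19.7). A constant multiple is not excluded. The scanner, the background step and the scaling are not stated in the sources used here. Division by the natural log of 2 gave log2 values, and each array was centred on its median (Python 3.11.15, pandas 2.3.3, numpy 2.4.6, scipy 1.17.1). The calculations were tested on simulated data.

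Members were the one-gene probes of 3 gene identifiers. Other genes were named by symbol or synonym from lists, and per member gene by the 3 probes with the highest Pearson r among those at a most frequent value on at most 2 arrays. Names came from the platform's table and from RefSeq's annotation of Zm-B73-REFERENCE-NAM-5.0 (515 of 532 genes), without coordinates. Members and lists were chosen with earlier results of these data known. The threshold of 19 arrays, the pep7 list, and the further values within each set of arrays were chosen after seeing the data. Blocks of 400 spots were inferred because 83.3% of empty spots recurred at that distance. Ratios without intensities give no depth, and the number of arrays limits the precision.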

Additional observations from a re-analysis of the deposited data

How the results depend on the processing

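The spreads of the members, the shares of arrays with a shared side among member probes and genes, and the difference between bundle sheath and mesophyll genes were recomputed without centring, with arrays scaled to one interquartile range, with blocks centred, with repeated values as missing, on S1 to S15, on S16 to S27 and with each array left out. A value counted as moved when it left the 95% binomial interval of a share, or differed by over 1.5 times otherwise. Leaving out 1 of 27 arrays can hardly take a share out of such an interval, so its ranges are given instead: 46.2% to 50.0% for the me3 probes, 53.8% to 57.7% for the rbcs1 probes, and 0.46 to 0.49 for the difference. Correlations were not counted here, and those of mdh6 with me3 (without S15, or with blocks centred) and with rbcs1 (without S13) changed sign. Likeness to photosystem, other carbon fixation, pep7 and nearest probes was recomputed only with blocks centred, within each set of arrays and, for r, without the 2 farthest arrays. Of the other planned values, 123 of 136 stayed and 13 moved, and 13 of 13 added ones stayed. The number of members whose spread reached 2-fold fell from 5 to 3 at a threshold of 1.5 and to 1 with the interquartile range, both stricter by construction. On arrays where both gene means lay at least 0.2 from the median, me3 and mdh6 shared a side on 77.8% (7 of 9 arrays, against 59.3% of 27), and few arrays were left. The other 10 moved values were of single probes or pairs of probes, among them the spread of me3 probe 6768 on S16 to S27 (5.02 against 1.83). With 2 probes per gene the median equals the mean, so that alternative could change nothing. Scaling an array cannot move a value across its median, so shares under scaling were fixed, yet they are counted among those that stayed. No member value was among the repeated ones, so treating those as missing acted only through each array's median. No paired analysis was possible because the labels assign the arrays to no groups. Signal over background was not used here, so how far dim spots limit the ratios was not measured.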
